A study of Homo sapiens with 6 samples.

Results

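The miR-183 cluster comprises 3 hairpins, MIR183, MIR96 and MIR182, on the minus strand of chromosome 7. The rows of the miRNA table that carry the names hsa-miR-183-5p, hsa-miR-183-3p, hsa-miR-96-5p and hsa-miR-182-5p (written below without the species prefix) were taken as its members, which gave 4 of the 1000 mature miRNAs listed. All 4 were among the 826 miRNAs tested. The libraries came from HEK 293T, an immortalized line from human embryonic kidney. ΔTUT4/7 cells (genotype TENT3A/B knockout, 3 libraries) lack both terminal uridylyltransferases, TUT4 (TENT3A) and TUT7 (TENT3B), and were compared with wild type cells (genotype WT, 3 libraries), with no treatment named for either strain. The replicates are labelled as biological, and the ΔTUT4/7 cells are 1 strain obtained from another laboratory, so any other difference between the strains is part of each comparison. Library totals ranged from 4688610 to 5073921 counts in ΔTUT4/7 and from 4338558 to 7967606 in wild type cells. Neither TUT4 nor TUT7 is itself measured by miRNA sequencing, which leaves the knockout unchecked here.

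TUT4 and TUT7 add uridines to the 3′ ends of RNAs, and on precursor miRNAs a long uridine tail leads to decay while a single uridine helps the processing of group II precursors, whose 3′ overhang is short. MIR183, MIR96 and MIR182 are not in the list of group II hairpins that the study drew from MirGeneDB. The miRNAs of this cluster are made from a common primary transcript. They are known for their high levels in sensory organs, such as the hair cells of the inner ear and the photoreceptors, and changes in the seed of miR-96 cause inherited hearing loss. In many epithelial tumours the cluster is abundant, and the transcription factor FOXO1 is a well-known target that its members share.

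The mature sequences are shown first because the seed, the bases 2 to 8 that pair with targets, sets the members apart. They are given 5′ to 3′ from RefSeq (GRCh38.p14) with the seed in capitals.
miR-183-5p: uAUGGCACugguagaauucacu
miR-183-3p: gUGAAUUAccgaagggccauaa
miR-96-5p: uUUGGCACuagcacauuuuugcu
miR-182-5p: uUUGGCAAugguagaacucacacu
miR-1271-5p: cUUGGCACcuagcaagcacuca
The last of these is encoded on chromosome 5 and is shown because its seed equals that of miR-96-5p. Bases 2 to 7 are the same in miR-96-5p, miR-182-5p and miR-1271-5p, and no other listed miRNA with a sequence in RefSeq has them. Among the first 18 bases, to which the authors trimmed the reads, 12 are the same in miR-96-5p and miR-182-5p. Counted from 1 at the 5′ end, with the base of miR-96-5p first, the earliest difference is C8A, in the last base of the seed. miR-183-5p and miR-182-5p have the same base at 15 of the first 18 positions and differ by A2U, C8A and U17C, with the base of miR-183-5p first. Among the 897 listed miRNAs with a sequence in RefSeq, none shares the first 18 bases of a member.

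On hg38 the miR-183-5p sequence lies on chromosome 7 from 129774967 to 129774988 and miR-183-3p from 129774928 to 129774949. miR-96-5p lies from 129774739 to 129774761 and miR-182-5p from 129770447 to 129770470. The 3 hairpins span 4632 bases, from 129770383 to 129775014, with 135 bases between MIR183 and MIR96 and 4199 bases between MIR96 and MIR182. In GENCODE release 44 they lie inside the long non-coding RNA gene ENSG00000286380, which runs from 129763060 to 129780220 on the same strand. None of its annotated exons overlaps a hairpin, and 1 of its transcripts spans all 3 hairpins, which therefore lie in intronic sequence. Whether an exon lies between the hairpins was not checked. The hairpins of miR-96 and miR-182 are given with the annotated mature arms in capitals, to show where in the stem they lie. The 3p arm of MIR96 was not listed and has no counts here, and that of MIR182 is not a member.
MIR96: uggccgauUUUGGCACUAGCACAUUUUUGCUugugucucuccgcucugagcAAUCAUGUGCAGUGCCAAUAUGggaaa
MIR182: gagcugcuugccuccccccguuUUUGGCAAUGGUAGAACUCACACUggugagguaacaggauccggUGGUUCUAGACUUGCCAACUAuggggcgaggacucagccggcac

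All 4 members had lower CPM, counts scaled to the library total, in every ΔTUT4/7 library than in any wild type library, by 19.0% to 31.5% of the wild type mean. In the whole table the ΔTUT4/7 libraries lay entirely below the wild type libraries for 29.5% of the 826 tested miRNAs, and for 34.3% of the 391 with a mean of at least 10 CPM. In the quasi-likelihood test of edgeR, adjusted over all 826 by Benjamini-Hochberg, 3 of the 4 members, miR-183-5p, miR-183-3p and miR-182-5p, fell at an adjusted p under 0.05, against a background of 21.9% of tested miRNAs that fell. Among the 391 more abundant miRNAs the share that fell was 28.6%. None of the 4 reached the 2-fold change that the study used as its limit, which 13.6% of tested miRNAs passed downwards. The median log2 fold change was -0.51 for the 4 members and 0.01 for all tested miRNAs. The members come from the same primary transcript, and miR-183-5p and miR-183-3p from the same hairpin. They are therefore not 4 independent cases to set against these shares.

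**Figure D1:**
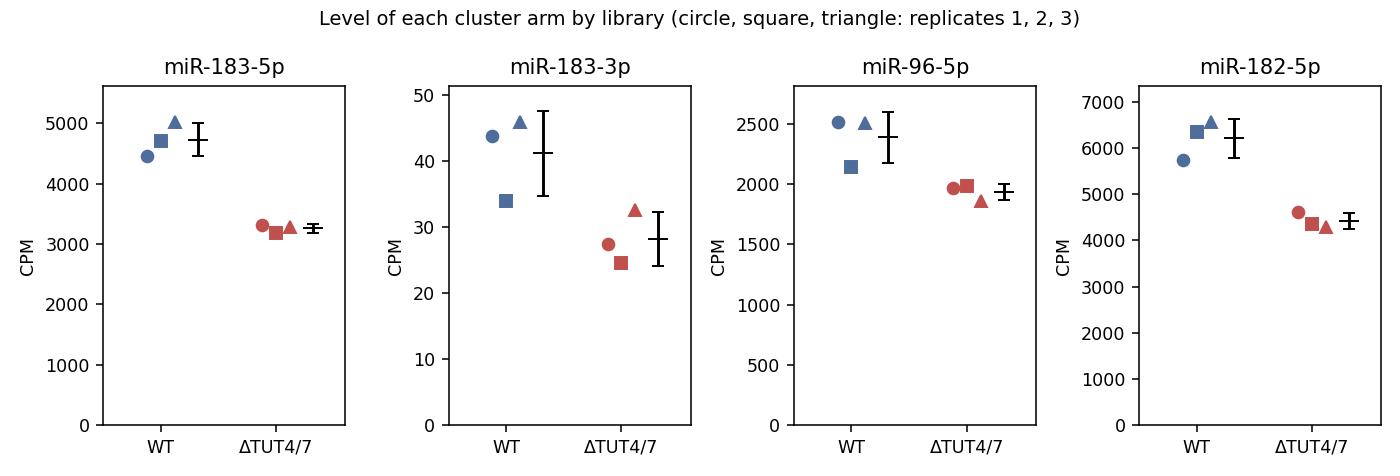
CPM (counts scaled to the library total) of each cluster arm in the 3 wild type (WT) and 3 ΔTUT4/7 libraries, on linear axes from 0. Symbols are replicates, and the bars beside them give the mean ± SD. In each panel all ΔTUT4/7 libraries lie below all wild type libraries, with the narrowest gap for miR-183-3p, where ΔTUT4/7 replicate 3 had 32.6 CPM and wild type replicate 2 had 33.9 CPM.

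miR-183-5p, the more abundant arm of the MIR183 hairpin, had 3318, 3179.7 and 3285 CPM in ΔTUT4/7 replicates 1, 2 and 3 and 4463, 4709 and 5017 CPM in wild type replicates 1, 2 and 3. The strains were separated by 1145 CPM between the highest ΔTUT4/7 and the lowest wild type library, and the ΔTUT4/7 libraries were close together. The means were 3261 ± 72.2 CPM in ΔTUT4/7 against 4730 ± 277 CPM in WT (SD, n = 3 each), with the log2 fold change at -0.54 with a 95% interval of -0.79 to -0.28 (standard error 0.12, edgeR adjusted p = 0.00277). This decrease passed the test under each of the 14 other settings run.

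miR-183-3p, the other arm of the same hairpin, was far scarcer and rested on 118 to 153 counts per ΔTUT4/7 library and 193 to 270 per wild type library. It had 27.4, 24.5 and 32.6 CPM in ΔTUT4/7 replicates 1, 2 and 3 and 43.7, 33.9 and 45.9 CPM in wild type replicates 1, 2 and 3. Wild type replicate 2, the most deeply sequenced library, lay close to ΔTUT4/7 replicate 3, and the others stood further apart. With 28.2 ± 4.11 CPM in ΔTUT4/7 against 41.2 ± 6.39 CPM in WT (SD, n = 3 each), the log2 fold change was -0.54 with a 95% interval of -0.99 to -0.10 (standard error 0.20, edgeR adjusted p = 0.0481). The estimate had the same size as that of the 5p arm with a wider error, and its call was lost when any of 4 single libraries was left out. Without ΔTUT4/7 replicate 1 the edgeR adjusted p was 0.114, and without ΔTUT4/7 replicate 2 it was 0.194. Without wild type replicate 1 the edgeR adjusted p was 0.106, and without wild type replicate 3 it was 0.0804.

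miR-96-5p, the miRNA linked to hearing loss, differed least between the strains. It had 1966, 1981 and 1858 CPM in ΔTUT4/7 replicates 1, 2 and 3, and 2514, 2146 and 2509 CPM in wild type replicates 1, 2 and 3. Wild type replicate 2 was the lowest of its strain here too, 164 CPM above the highest ΔTUT4/7 library. The means were 1935 ± 67.1 CPM in ΔTUT4/7 against 2390 ± 211 CPM in WT (SD, n = 3 each), with the log2 fold change at -0.30 (standard error 0.13, 95% interval -0.58 to -0.03) that did not pass the test (edgeR adjusted p = 0.0688). Without wild type replicate 2 it did, at -0.38 (edgeR adjusted p = 0.0414).

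miR-182-5p, the most abundant member and the one nearest the 3′ end of the cluster, ranked 30 to 36 among the 1000 listed miRNAs in the 6 libraries. It had 4607, 4345 and 4289 CPM in ΔTUT4/7 replicates 1, 2 and 3 and 5737, 6339.9 and 6556 CPM in wild type replicates 1, 2 and 3. As with miR-183-5p, the strains stood well apart, by 1130.3 CPM between their nearest libraries. The means of miR-182-5p were 4414 ± 169.5 CPM in ΔTUT4/7 against 6211 ± 424 CPM in WT (SD, n = 3 each), with the log2 fold change at -0.49 with a 95% interval of -0.75 to -0.24 (standard error 0.12, edgeR adjusted p = 0.00443).

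miR-182-3p, which is not a member but comes from the same hairpin, had 13.2, 9.56 and 12.8 CPM in ΔTUT4/7 replicates 1, 2 and 3 and 16.1, 11.5 and 24.0 CPM in wild type replicates 1, 2 and 3. Its libraries overlapped between the strains, and its difference of -0.52 on the log2 scale (edgeR standard error 0.28, adjusted p = 0.150) did not pass the test. It rested on 46 to 104 counts per library, with a 95% interval of -1.13 to 0.10. Its coefficient of variation among wild type libraries was 36.5%, where counting alone would give 10.6%. The miR-96-3p arm was not among the 1000 miRNAs listed.

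CPM are shares of a library. In ΔTUT4/7 libraries 19.2% to 19.7% of counts fell on let-7 miRNAs and miR-98, compared with 5.57% to 6.36% in wild type libraries. A gain of this kind lowers the CPM of all other miRNAs. When these 19 arms were taken out of the library totals, the median over all tested miRNAs moved from 0.01 to 0.23 on the log2 scale, the number that fell from 181 to 136, and the number that rose from 192 to 258. On this scale miR-183-5p still fell, by a log2 fold change of -0.31 with a 95% interval of -0.57 to -0.06 (standard error 0.12, edgeR adjusted p = 0.0440), and 16.5% of tested miRNAs fell with it. miR-182-5p had -0.27 (95% interval -0.53 to -0.01, edgeR adjusted p = 0.0745), and its libraries still did not overlap, as was so for 22% of tested miRNAs in that direction. miR-183-3p had -0.32 (edgeR adjusted p = 0.215) and miR-96-5p had -0.08 (95% interval -0.36 to 0.20, edgeR adjusted p = 0.618), both with overlapping libraries. Relative to the median of all tested miRNAs, which takes out such a common shift by construction, the log2 fold changes were -0.55 for miR-183-5p, -0.32 for miR-96-5p and -0.51 for miR-182-5p. How much of the lower CPM of the cluster goes with the larger let-7 share and how much with fewer molecules per cell cannot be told apart from shares alone.

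**Figure D2:**
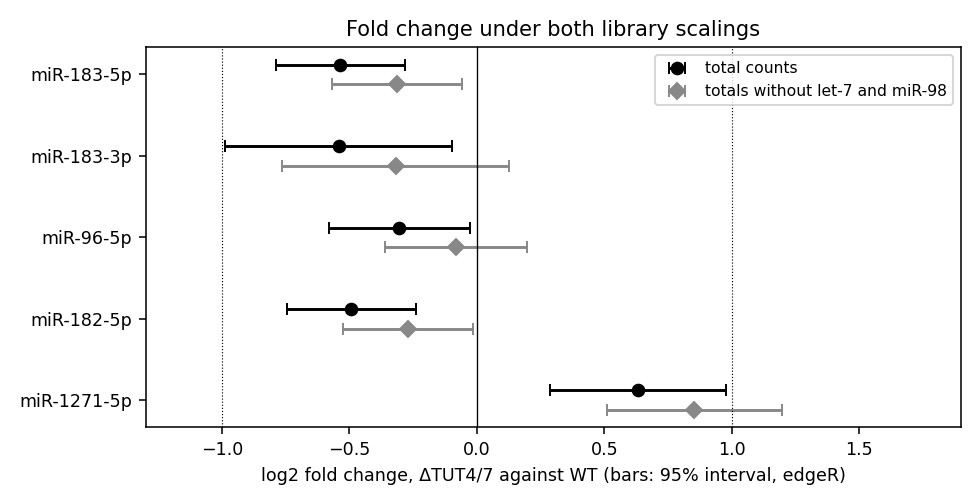
Log2 fold change of ΔTUT4/7 against wild type cells for the 4 members and for miR-1271-5p, with 95% intervals from edgeR. Black circles use library totals, grey diamonds use totals without let-7 and miR-98, and dotted lines mark a 2-fold change. Every member lies between the dotted lines and moves towards 0 on the second scale, where the intervals of miR-183-3p and miR-96-5p include 0, while miR-1271-5p lies to the right of 0 on both.

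Together the 4 members had 9918, 9531 and 9465 CPM in ΔTUT4/7 replicates 1, 2 and 3 and 12758, 13229 and 14128 CPM in wild type replicates 1, 2 and 3. The means of the sum were 9638 ± 245 CPM in ΔTUT4/7 against 13371 ± 696 CPM in WT (SD, n = 3 each), 27.9% lower. The mean difference on the log2 scale was -0.47 (2-sided exact permutation test over the libraries, p = 0.1, the smallest that 3 against 3 libraries allow). On the scale without let-7 the sum was 15.9% lower, at -0.25 on the log2 scale, and the libraries of the strains still did not overlap.

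Ratios between arms within a library need no scaling, and they ask whether the 3 hairpins of the common transcript kept their proportions. 4 such ratios were tested with a 2-sided exact permutation test over the 6 libraries, and none could go below p = 0.1. The ratio of miR-183-5p to miR-183-3p was 121, 130 and 101 in ΔTUT4/7 replicates 1, 2 and 3 and 102, 139 and 109 in wild type replicates 1, 2 and 3. These values overlapped fully, with a mean difference of 0.01 on the log2 scale (exact permutation p = 1.0), and the sign of that difference depended on single libraries. The ratio of miR-183-5p to miR-182-5p was 0.720, 0.732 and 0.766 in ΔTUT4/7 replicates 1, 2 and 3 and 0.778, 0.743 and 0.765 in wild type replicates 1, 2 and 3. It differed by -0.04 on the log2 scale (exact permutation p = 0.300, adjusted p = 0.400), the steadiest of the 4 ratios over the libraries.

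The ratio of miR-96-5p to miR-183-5p was 0.593, 0.623 and 0.566 in ΔTUT4/7 replicates 1, 2 and 3 and 0.563, 0.456 and 0.50 in wild type replicates 1, 2 and 3. All ΔTUT4/7 libraries lay above all wild type libraries, but ΔTUT4/7 replicate 3 exceeded wild type replicate 1 by less than the spread within either strain. The difference was 0.23 on the log2 scale (exact permutation p = 0.1, adjusted p = 0.400 over the 4 ratios). The ratio of miR-96-5p to miR-182-5p was 0.427, 0.456 and 0.433 in ΔTUT4/7 replicates 1, 2 and 3 and 0.438, 0.338 and 0.383 in wild type replicates 1, 2 and 3. The strains overlapped through wild type replicate 1, and the difference was 0.19 on the log2 scale (exact permutation p = 0.300, adjusted p = 0.400). With 3 against 3 libraries no ratio could have passed, so these tests do not show whether the proportions were kept. Of the counts on the 4 members, miR-96-5p took 20.1% ± 0.620 in ΔTUT4/7 and 17.9% ± 1.75 in wild type cells, miR-182-5p took 45.8% ± 0.592 and 46.4% ± 1.48, and miR-183-5p took 33.8% ± 0.753 and 35.4% ± 0.334 (SD, n = 3 each).

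**Figure D3:**
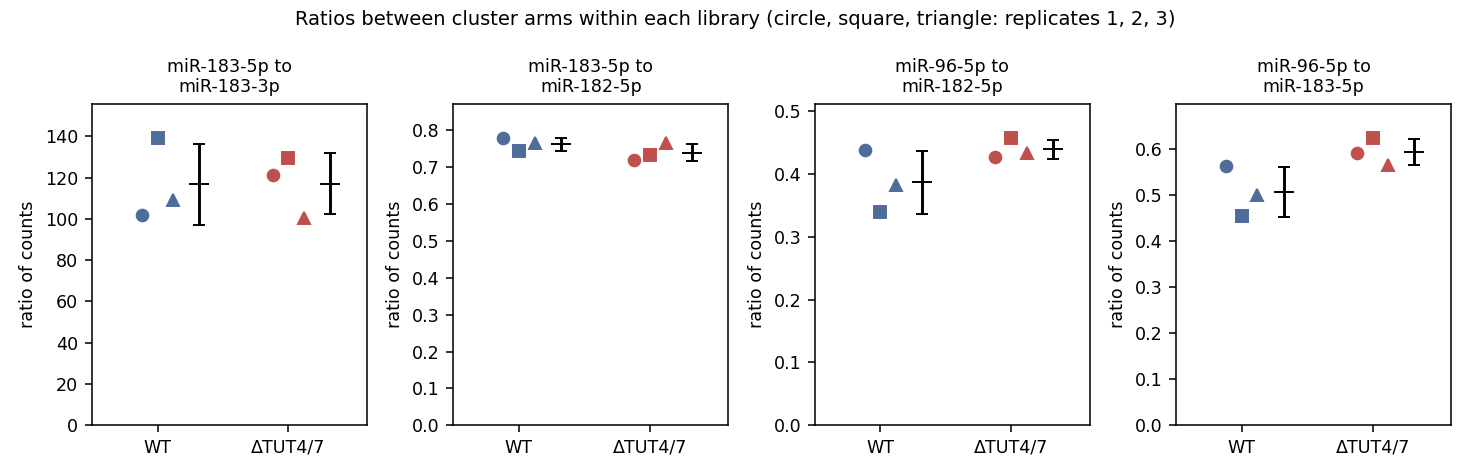
Ratios of counts between cluster arms within each wild type (WT) and ΔTUT4/7 library, on linear axes from 0. Symbols are replicates, and the bars beside them give the mean ± SD of the ratios. The strains overlap in the first 3 panels, and in the panel of miR-96-5p to miR-183-5p the ΔTUT4/7 libraries, at 0.566 to 0.623, lie above the wild type libraries, at 0.456 to 0.563.

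miR-1271-5p, which carries the seed of miR-96-5p on a different locus (chromosome 5, 176367960 to 176367981), rose in ΔTUT4/7 cells. It had 227, 245 and 255 CPM in ΔTUT4/7 replicates 1, 2 and 3 and 157, 174 and 139 CPM in wild type replicates 1, 2 and 3. Each ΔTUT4/7 library was higher than each wild type library, the opposite order to the cluster, and one found for 28.8% of tested miRNAs. The means were 242 ± 13.9 CPM in ΔTUT4/7 against 156 ± 17.5 CPM in WT (SD, n = 3 each), or 0.63 higher on the log2 scale (edgeR standard error 0.16, adjusted p = 0.00651), against 23.2% of tested miRNAs that rose. It passed under each of the 14 other settings, with 0.55 to 0.85. There was 0.125 ± 0.0109 of miR-1271-5p per miR-96-5p in ΔTUT4/7 and 0.0662 ± 0.0132 in WT (SD, n = 3 each), a ratio looked at after the values were seen and not tested. The 3 miRNAs with the bases UUGGCA at positions 2 to 7 summed to 6591 ± 199.7 CPM in ΔTUT4/7 against 8757 ± 407 CPM in WT (SD, n = 3 each). Of that sum, miR-96-5p and miR-182-5p made up 96.3% ± 0.320 in ΔTUT4/7 and 98.2% ± 0.259 in wild type libraries.

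No arm from nearby miRNA genes passed the test as lower, where 21.9% of all 826 tested miRNAs did. So few arms, most of them scarce, cannot show whether the neighbourhood differs from that share. The 5 such listed arms were miR-29a-3p, miR-29a-5p, miR-29b-1-5p, miR-335-5p and miR-129-1-3p, the nearest 721 kb and the farthest 1567 kb from MIR183. Only miR-129-1-3p passed, upwards, with 11.0, 12.1 and 14.9 CPM in ΔTUT4/7 and 3.17, 2.38 and 1.15 CPM in wild type replicates 1, 2 and 3. The nearest, miR-335-5p, had a log2 fold change of -0.75 (95% interval -1.90 to 0.41, edgeR adjusted p = 0.264). It rested on 3 to 11 counts per library, too few for a close estimate. Above 0 but short of the limit were miR-29a-5p at 0.32 and miR-29b-1-5p at 0.24. miR-29a-3p, the most abundant of the 5, had 2342 ± 284 CPM in ΔTUT4/7 against 2703 ± 470 CPM in WT (SD, n = 3 each), with the log2 fold change at -0.21 (edgeR adjusted p = 0.289). Among the 42 other tested miRNAs that the table places on chromosome 7, 8 fell and 8 rose, with a median log2 fold change of 0.05. Over all 826 tested miRNAs 21.9% fell and 23.2% rose, so both chromosome 7 counts lay near the background.

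The miRNAs whose levels over the 6 libraries were most like the summed cluster came from other chromosomes. Likeness was the root mean square difference of centred log2 CPM, which had a median of 0.42 over 387 candidates of at least 10 CPM. The 5 closest were miR-26a-5p (0.0534), miR-365b-3p (0.0563), miR-10b-3p (0.0610), miR-365a-3p (0.0658) and miR-454-3p (0.0689). miR-365a-3p and miR-365b-3p share their first 18 bases, so they count as 1 sequence. The most abundant of these, miR-26a-5p, had 12388, 12057 and 11903 CPM in ΔTUT4/7 replicates 1, 2 and 3 and 15399, 15112 and 16680.2 CPM in wild type replicates 1, 2 and 3. On the same measure the members lay at 0.0303 for miR-182-5p, 0.0376 for miR-183-5p, 0.120 for miR-96-5p and 0.181 for miR-183-3p. All 5 miRNAs from elsewhere were thus closer to the sum than miR-96-5p and miR-183-3p were. The members are themselves part of the sum, and miR-182-5p and miR-183-5p make up most of it.

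The arms of the cluster also stood close together when set beside other miRNA clusters, a comparison chosen after the values were seen and given as a description with no test. Arms with a mean of at least 10 CPM were joined where the table places them on the same strand within 10000 bases, and 27 groups of at least 3 arms from at least 2 hairpins were formed. The 5 arms of this cluster, miR-182-3p included, spanned 0.24 on the log2 fold change scale, from -0.54 to -0.30. This span was below the edgeR standard error of miR-182-3p, 0.28, and near that of miR-183-3p, 0.20. The other 26 groups spanned 0.53 to 4.94, and the median of all 27 was 1.20. In 12 of the 27 groups, this cluster among them, all arms had log2 fold changes of the same sign. The widest was the group of let-7a, let-7f and let-7d, and the next narrowest was that of miR-29a and miR-29b-1. The cluster had the narrowest span in 14 of 15 other settings, with 0.20 to 0.38, and was second without wild type replicate 2. The groups differ in the number and abundance of their arms, and for miRNAs with several gene copies the table gives a single place. With a limit of 100 CPM, which left 3 arms of this cluster and 14 groups, its span was 0.23 and the next 0.47.

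**Figure D4:**
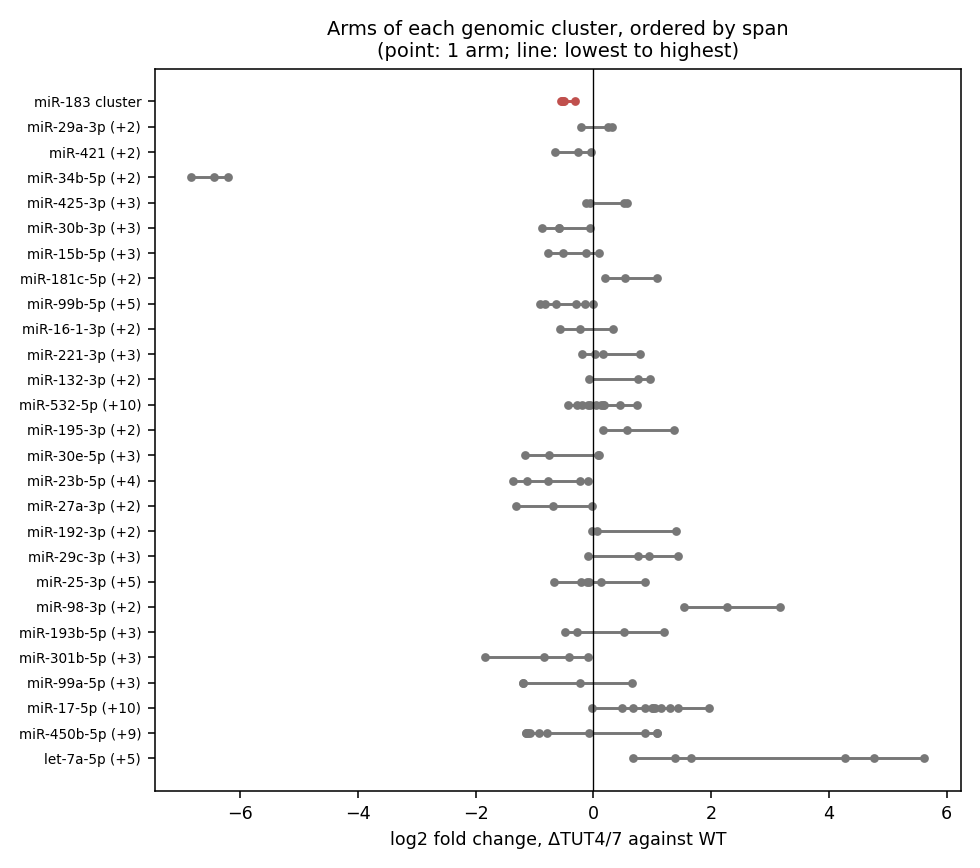
Log2 fold change of ΔTUT4/7 against wild type cells for each arm (points) of 27 genomic clusters of miRNAs, with a line from the lowest to the highest arm. Clusters are ordered by span and labelled by their first arm and the number of further arms. The miR-183 cluster, in red at the top, covers -0.54 to -0.30 and is the narrowest, while the cluster that starts with let-7a-5p, at the bottom, spans 4.94.

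Of 12 marker miRNAs of blood, liver, muscle, neurons, endothelium and stroma, 6 were listed. Their summed level was 3870.2 to 3981 CPM in ΔTUT4/7 and 2879 to 3734 CPM in wild type libraries, nearly all of it miR-126-3p. That miRNA did not pass the test (log2 fold change 0.28, edgeR adjusted p = 0.0917). The blood markers miR-142-3p, miR-142-5p and miR-150-5p summed to 38.2 to 39.8 CPM in ΔTUT4/7 and 57.5 to 106 CPM in wild type libraries. Of these, miR-142-3p (log2 fold change -1.05, edgeR adjusted p = 0.00425) and miR-142-5p (-1.25, edgeR adjusted p = 0.0259) fell. In contrast, miR-150-5p did not pass (-0.07, edgeR adjusted p = 0.883). The liver marker miR-122-5p had at most 1.76 CPM and fell (log2 fold change -1.63, edgeR adjusted p = 0.0491). The stroma marker miR-143-3p fell from 11.0 to 13.1 CPM in wild type to 0.853 to 2.76 CPM in ΔTUT4/7 libraries (log2 fold change -2.51, edgeR adjusted p = 0.000143). The kidney tubule miRNAs miR-192-5p, miR-194-5p and miR-204-5p were all present, and 2 of the 3 fell. miR-204-5p had 11.9 to 16.4 CPM in ΔTUT4/7 and 81.0 to 100.3 CPM in wild type libraries (log2 fold change -2.63, edgeR adjusted p = 8.46e-07). miR-194-5p had 375 to 383 CPM in ΔTUT4/7 and 508 to 690.1 CPM in wild type libraries (log2 fold change -0.61, edgeR adjusted p = 0.00743). miR-192-5p, which made up most of the sum of the 3, had 2043 to 2302 CPM in ΔTUT4/7 and 2062 to 2103 CPM in wild type libraries and did not pass the test (log2 fold change 0.06, edgeR adjusted p = 0.707). The part of other cells in the cluster's values was not tested.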

How the data were processed

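Small RNA libraries were made by the authors with the QIAseq miRNA Library Kit from 3 biological replicates of each strain, and reads were trimmed to 18 bases, aligned to hg38 with Bowtie 1.0.0 and quantified on mature miRNAs of miRBase in Partek Flow 10.0.22, per the labels and the paper's methods. The use of molecular identifiers is not stated. The authors deposited estimated counts, whole numbers from an expectation-maximization step, the largest of them rounded to 3 digits. A second deposited file holds the authors' own comparison (p-values, ratios and strain means) and was not used. Trimming removes the 3′ ends, so uridylation of the mature miRNAs was not analysed here. Between replicates the counts varied beyond sampling noise (chi-square divided by its degrees of freedom, 13.3 to 293).

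CPM were taken over each column total. miRNAs with a highest count above 7, the study's limit, were tested in edgeR 4.0.16 (R 4.3.3, quasi-likelihood, normalization factors of 1, all 6 libraries, Benjamini-Hochberg adjustment). Ratios and the sum were tested by exact permutation in Python 3.11.15 (scipy 1.17.1). Likeness used log2(CPM + 0.5). Alternatives were DESeq2 1.42.0, TMM and RLE factors, library totals less let-7 and miR-98, limma 3.58.1 with a trend (pseudocount 1), filterByExpr or no filter, the replicate number as a block, and each library left out. The fits were tested on counts simulated with a common dispersion of 0.0358. There edgeR found 81 of 100 simulated 2-fold changes and 92 of 98 larger ones, with 15 false calls in a set of 769 miRNAs. Changes below 2-fold, such as those of the members, were not simulated. RefSeq gave sequences for 897 of the 1000 listed miRNAs, with 892 at the table's coordinates.

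The members and lists were chosen with earlier results of these data known. Named were the members, the other listed arm of their hairpins, miRNAs sharing bases 2 to 7, listed neighbours on chromosome 7, the 5 most alike in profile and the marker lists. Other clusters, named in the comparison of spans, were added after the values were seen.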

Additional observations from a re-analysis of the deposited data

How the results depend on the processing

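The 4 members kept a negative log2 fold change under every alternative run. miR-183-5p passed the test in all 14, between -0.58 and -0.31, and miR-182-5p in 13. On the scale without let-7, 1 of the 4 members passed, and the values were -0.27 for miR-182-5p (edgeR adjusted p = 0.0745) and -0.32 for miR-183-3p (edgeR adjusted p = 0.215). miR-183-3p also missed the limit with no filter on low counts (-0.54, edgeR adjusted p = 0.0560). With each library left out in turn, miR-183-3p had -0.67 to -0.45, miR-96-5p -0.38 to -0.27, miR-183-5p -0.58 to -0.49 and miR-182-5p -0.55 to -0.45. The difference in the log2 ratio of miR-183-5p to miR-183-3p ran from -0.082 to 0.14 in those fits and changed sign in 4 of them. The span of the cluster rose to 0.38 without ΔTUT4/7 replicate 3 or without wild type replicate 2. Same-numbered libraries of the strains did not deviate together, with correlations across 391 miRNAs of -0.25 to -0.15. Differently numbered libraries had -0.10 to 0.19. No positive pairing by number was seen, but 3 libraries per strain cannot show whether same-numbered replicates were handled together. With the replicate number as a block, miR-183-3p had -0.54 (edgeR adjusted p = 0.0667), and no other member changed its call. The scarce arm miR-183-3p varied by 15.5% among wild type libraries, where counting alone would give 6.73%; the part of depth in its error was not tested.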
